A study of Mus musculus with 117 samples.

Results

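The genes described here are 10 that mark liver cells other than hepatocytes. Krt19, Krt7, Sox9 and Epcam are 4 markers of the bile duct epithelium, and Lrat, Dcn, Col1a1, Acta2, Pdgfrb and Reln are 6 markers of hepatic stellate cells. They were listed by name and not by any measured value, and they are 10 of the 20661 protein-coding genes on the autosomes of the annotation. Each gene was read as the 200-bp bins that touch its span padded by 2 kb to each side. This gave 3326 bins, of which Reln alone held 2322 and the other 9 genes 1004.

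The chromatin came from hepatocytes, the parenchymal cells of the liver, taken from female mice 12 weeks old with no treatment named in the labels. The groups were the inbred strains C57BL/6J, 129S1/SvImJ, A/J, NZO/HlLtJ, NOD/ShiLtJ and DBA/2J and the wild-derived inbred strains WSB/EiJ, PWK/PhJ and CAST/EiJ. Each strain had ChIP-seq for H3K4me1, H3K4me3, H3K27ac and H3K27me3 in 3 mice and 1 input library, 117 libraries in all. The authors' deposited files combine the 13 libraries of a strain into 1 segmentation, in which every bin carries the number of 1 of 14 chromatin states. A state number is used only as a name here, the read depth behind it is unknown, and every SD below is over the 9 strains.

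Cholangiocytes, the cells that line the bile ducts, hold keratins 7 and 19 in their cytoskeleton and the adhesion molecule EPCAM at their surface, and the transcription factor SOX9 takes part in the formation of the ducts. Hepatic stellate cells store vitamin A as retinyl esters and, once activated by injury, turn into contractile myofibroblasts that lay down collagen. Of the marks surveyed, H3K4me3 is known from active promoters, H3K4me1 and H3K27ac from enhancers, and H3K27me3 from genes that Polycomb proteins keep silent, many of them developmental regulators or markers of other cell types.

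The states can be read only through the genes that carry them. At 20 hepatocyte-expressed genes, states 1 to 4 together held 87.2% ± 3.05 of the bins (SD, n = 9 strains) and state 13 held 0.168% ± 0.271. States 1 to 4 were grouped because earlier results of these data placed them at hepatocyte-expressed genes, so this high share is no independent finding. At 18 ubiquitously expressed genes, states 1 to 4 held 50.8% ± 4.26 and state 13 held 0%. At 20 developmental regulators, states 1 to 4 held 0.649% ± 0.769 and state 13 held 69.5% ± 3.04. Over the autosomes, 23.4% ± 1.48 of the bins lay outside state 14, 11.1% ± 1.36 in state 13 and 7.94% ± 0.824 in states 1 to 4. Marked bins are those that at least 1 strain holds outside state 14.

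Markers of other cells that a hepatocyte preparation could hold were read the same way. Over all protein-coding genes the mean share of states 1 to 4 was 19.8%, from 17.1% to 22.6% over the strains. At 16 endothelial markers their mean ranged from 20.5% in NOD/ShiLtJ to 32.5% in PWK/PhJ, with Sox18 alone at 0 in all strains, and 8 of the 16 were called higher than the autosomes and 6 lower. At 15 Kupffer cell and leukocyte markers it ranged from 6.88% in NOD/ShiLtJ to 12.9% in C57BL/6J, with 5 at 0, among them Cd5l, Timd4, Marco and Lyz2, and 4 of the 15 were called higher and 10 lower. Of all genes, 45.0% were called higher than the autosomes in states 1 to 4 and 45.4% lower. A state set by hepatocytes and one set by a share of other cells cannot be told apart in a segmentation of bulk chromatin, and the part of either in the values at the 10 genes was not tested.

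The promoters of Krt7, Epcam, Lrat, Acta2 and Reln are the 5 matched in the RefSeq promoter table, and are shown so that their CG content can be read beside the state at each start. Each run covers 250 bases before to 50 bases after the annotated start, 5′ to 3′ on the gene's own strand, from RefSeq on GRCm38.p6. The capitals mark CG dinucleotides. The regions are chr15:101412153-101412452 on the + strand for Krt7, chr17:87635729-87636028 on the + strand for Epcam, chr3:82903925-82904224 on the - strand for Lrat, chr19:34255324-34255623 on the - strand for Acta2 and chr5:22344656-22344955 on the - strand for Reln. The promoters of Krt19, Sox9, Dcn, Col1a1 and Pdgfrb are not shown.
Krt7: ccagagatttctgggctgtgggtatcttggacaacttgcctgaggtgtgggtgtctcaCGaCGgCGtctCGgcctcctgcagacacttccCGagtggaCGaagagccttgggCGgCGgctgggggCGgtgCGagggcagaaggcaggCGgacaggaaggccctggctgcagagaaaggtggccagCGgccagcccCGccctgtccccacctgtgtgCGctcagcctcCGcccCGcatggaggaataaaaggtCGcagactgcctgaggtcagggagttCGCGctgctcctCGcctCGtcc
Epcam: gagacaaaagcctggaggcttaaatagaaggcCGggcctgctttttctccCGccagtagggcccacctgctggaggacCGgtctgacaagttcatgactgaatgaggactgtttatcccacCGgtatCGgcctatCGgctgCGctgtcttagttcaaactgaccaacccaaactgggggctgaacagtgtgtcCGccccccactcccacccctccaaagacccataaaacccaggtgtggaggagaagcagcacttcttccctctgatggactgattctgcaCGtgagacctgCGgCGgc
Lrat: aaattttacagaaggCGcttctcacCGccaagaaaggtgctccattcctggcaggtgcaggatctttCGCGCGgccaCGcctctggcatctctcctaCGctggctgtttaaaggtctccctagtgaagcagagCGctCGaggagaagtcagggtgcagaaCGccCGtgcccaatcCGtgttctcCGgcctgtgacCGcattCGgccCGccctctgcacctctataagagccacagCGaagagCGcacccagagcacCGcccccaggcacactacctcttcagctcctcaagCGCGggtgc
Acta2: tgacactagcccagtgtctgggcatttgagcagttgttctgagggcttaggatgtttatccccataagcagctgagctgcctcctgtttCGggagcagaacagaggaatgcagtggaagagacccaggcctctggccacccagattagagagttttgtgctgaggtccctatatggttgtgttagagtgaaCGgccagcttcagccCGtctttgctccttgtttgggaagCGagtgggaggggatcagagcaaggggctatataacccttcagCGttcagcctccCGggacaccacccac
Reln: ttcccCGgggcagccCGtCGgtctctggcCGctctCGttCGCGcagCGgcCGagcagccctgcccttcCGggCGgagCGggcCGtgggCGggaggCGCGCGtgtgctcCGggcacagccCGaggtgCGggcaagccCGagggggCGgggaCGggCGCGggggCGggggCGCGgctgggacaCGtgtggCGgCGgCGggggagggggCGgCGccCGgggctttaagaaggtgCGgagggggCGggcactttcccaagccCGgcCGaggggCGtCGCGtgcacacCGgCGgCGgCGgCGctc

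Reln had 47 CG dinucleotides in its 300 bases, more than 98.1% of the 20084 start sites of the table. Krt7 and Lrat had 21 each, Epcam 11 and Acta2 6, against a median of 14 over all start sites. The motif TATAAA, searched on both strands, was in 0 of these 5 promoters and in 12.7% of all. CCAAT was in Lrat alone and in 38.1% of all, and GGGCGG was in Krt7, Epcam, Lrat and Reln and in 47.0% of all. These are matches of letters within 300 bases and not measured binding sites.

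The keratin genes were covered by state 13. Krt19 (gene ID 16669, chr11:100140810-100145926) encodes an acidic keratin of simple epithelia. State 13 held 56.5% of its 46 bins in NZO/HlLtJ, the lowest strain, a median of 60.9%, and 84.8% in DBA/2J, the highest. WSB/EiJ had 80.4% and the other 7 strains lay between 56.5% and 63.0%, so only DBA/2J and WSB/EiJ stood above the rest. All bins outside states 13 and 14 at Krt19 were a single bin of state 10, at chr11:100145001-100145200, present in 129S1/SvImJ, CAST/EiJ, NZO/HlLtJ and WSB/EiJ. State 13 filled 10 or 11 of the 11 bins around the higher-coordinate end of Krt19 in every strain. Around the lower-coordinate end it was present in DBA/2J and WSB/EiJ only, with 7 and 8 bins. The mean of 64.7% ± 10.4 was 53.7 points above the autosomal share of each strain and higher in 9 of 9 strains (exact sign-flip permutation test over the strains, adjusted p = 0.00498).

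Krt7 (gene ID 110310, chr15:101412403-101427806) encodes a basic keratin of simple epithelia. Its 98 bins held states 13 and 14 alone. State 13 took 18.4% of them in PWK/PhJ and 51% in NOD/ShiLtJ. The other 7 strains lay between 83.7% and 94.9%, with C57BL/6J highest. PWK/PhJ and NOD/ShiLtJ thus lay below all others, and the other 7 overlapped closely. The mean of 77.7% ± 26.0 was 66.6 points above the autosomal share and higher in 9 of 9 strains (exact permutation, adjusted p = 0.00498). The domain reached beyond the gene. In the 50 kb on the lower-coordinate side, state 13 held 75.1% of the bins on average, and on the other side 56.3%. In PWK/PhJ these flanks had 21.2% and 18.0%, so the low value of PWK/PhJ at Krt7 was shared by its surroundings, while the share of state 13 over its autosomes, 11.4%, was near the mean of the strains. The start of Krt7 was in state 13 in 8 strains and in state 14 in PWK/PhJ.

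Epcam carried a small domain near its start and was mostly in state 14. Epcam (gene ID 17075, chr17:87635979-87651127) encodes the epithelial cell adhesion molecule. In 8 strains at least 1 of states 10, 11 and 12 appeared within 1 kb of the start, in differing order, and these states together held between 4.12% and 11.3% of the 97 bins. Further into the gene lay a segment of state 13 that was 2.0 to 2.4 kb long and began at 87637601 or 87637801 in each of the 8. The body of the gene downstream of it was in state 14 apart from short stretches of state 13 in A/J and WSB/EiJ. CAST/EiJ had other states there, with 0% in states 10 to 13, 3 bins of state 8, 2 bins of state 3 and 5 bins of state 9. DBA/2J had states of both kinds, with 1 bin of state 8 and 4 bins of state 9 beside states 11 and 12. State 13 averaged 13.7% ± 6.88, which was not called different from the autosomal share (2.69 points, higher in 7 of 9 strains, exact permutation, adjusted p = 0.245). Without CAST/EiJ the difference was 4.33 points and was called (adjusted exact permutation p = 0.0186).

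Sox9 showed the most varied chromatin of the 10 genes. It (gene ID 20682, chr11:112782210-112787757) encodes a transcription factor of duct and progenitor cells. Of the 14 states, 13 appeared somewhere in its 48 bins, up to 6 of them in the same bin, and 0 bins had the same state in all 9 strains. States 1 to 4 held 10.4% of its bins in C57BL/6J and WSB/EiJ, a median of 16.7%, and 47.9% in DBA/2J, where the next strain had 25%. The mean of 20.6% ± 11.6 was 12.7 points above the autosomal share and higher in 9 of 9 strains (exact permutation, adjusted p = 0.00477). State 1 was found within 1 kb of the lower-coordinate end in all 9 strains, in 4 to 10 of 11 bins, and state 3 in 6 strains, not in 129S1/SvImJ, A/J or WSB/EiJ.

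The rest of Sox9 divided the strains. State 12 was present in 7 strains, up to 27.1% in WSB/EiJ, and absent in DBA/2J and NOD/ShiLtJ. In those strains states 8 and 9 covered 18.8% each (DBA/2J) and 35.4% and 16.7% (NOD/ShiLtJ). State 13 was absent in 5 strains and held 14.6% in NZO/HlLtJ, 16.7% in A/J, 18.8% in PWK/PhJ and 33.3% in WSB/EiJ. State 13 was not called different from the autosomal share (-1.80 points, higher in 4 of 9 strains, exact permutation, adjusted p = 0.662). Around the higher-coordinate end, state 6 was found in 8 strains and not in WSB/EiJ, which had states 10 and 13 there. DBA/2J had 3 bins of state 1 and 2 of state 2 within 1 kb of that end, and NZO/HlLtJ 3 bins of state 1.

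**Figure D1:**
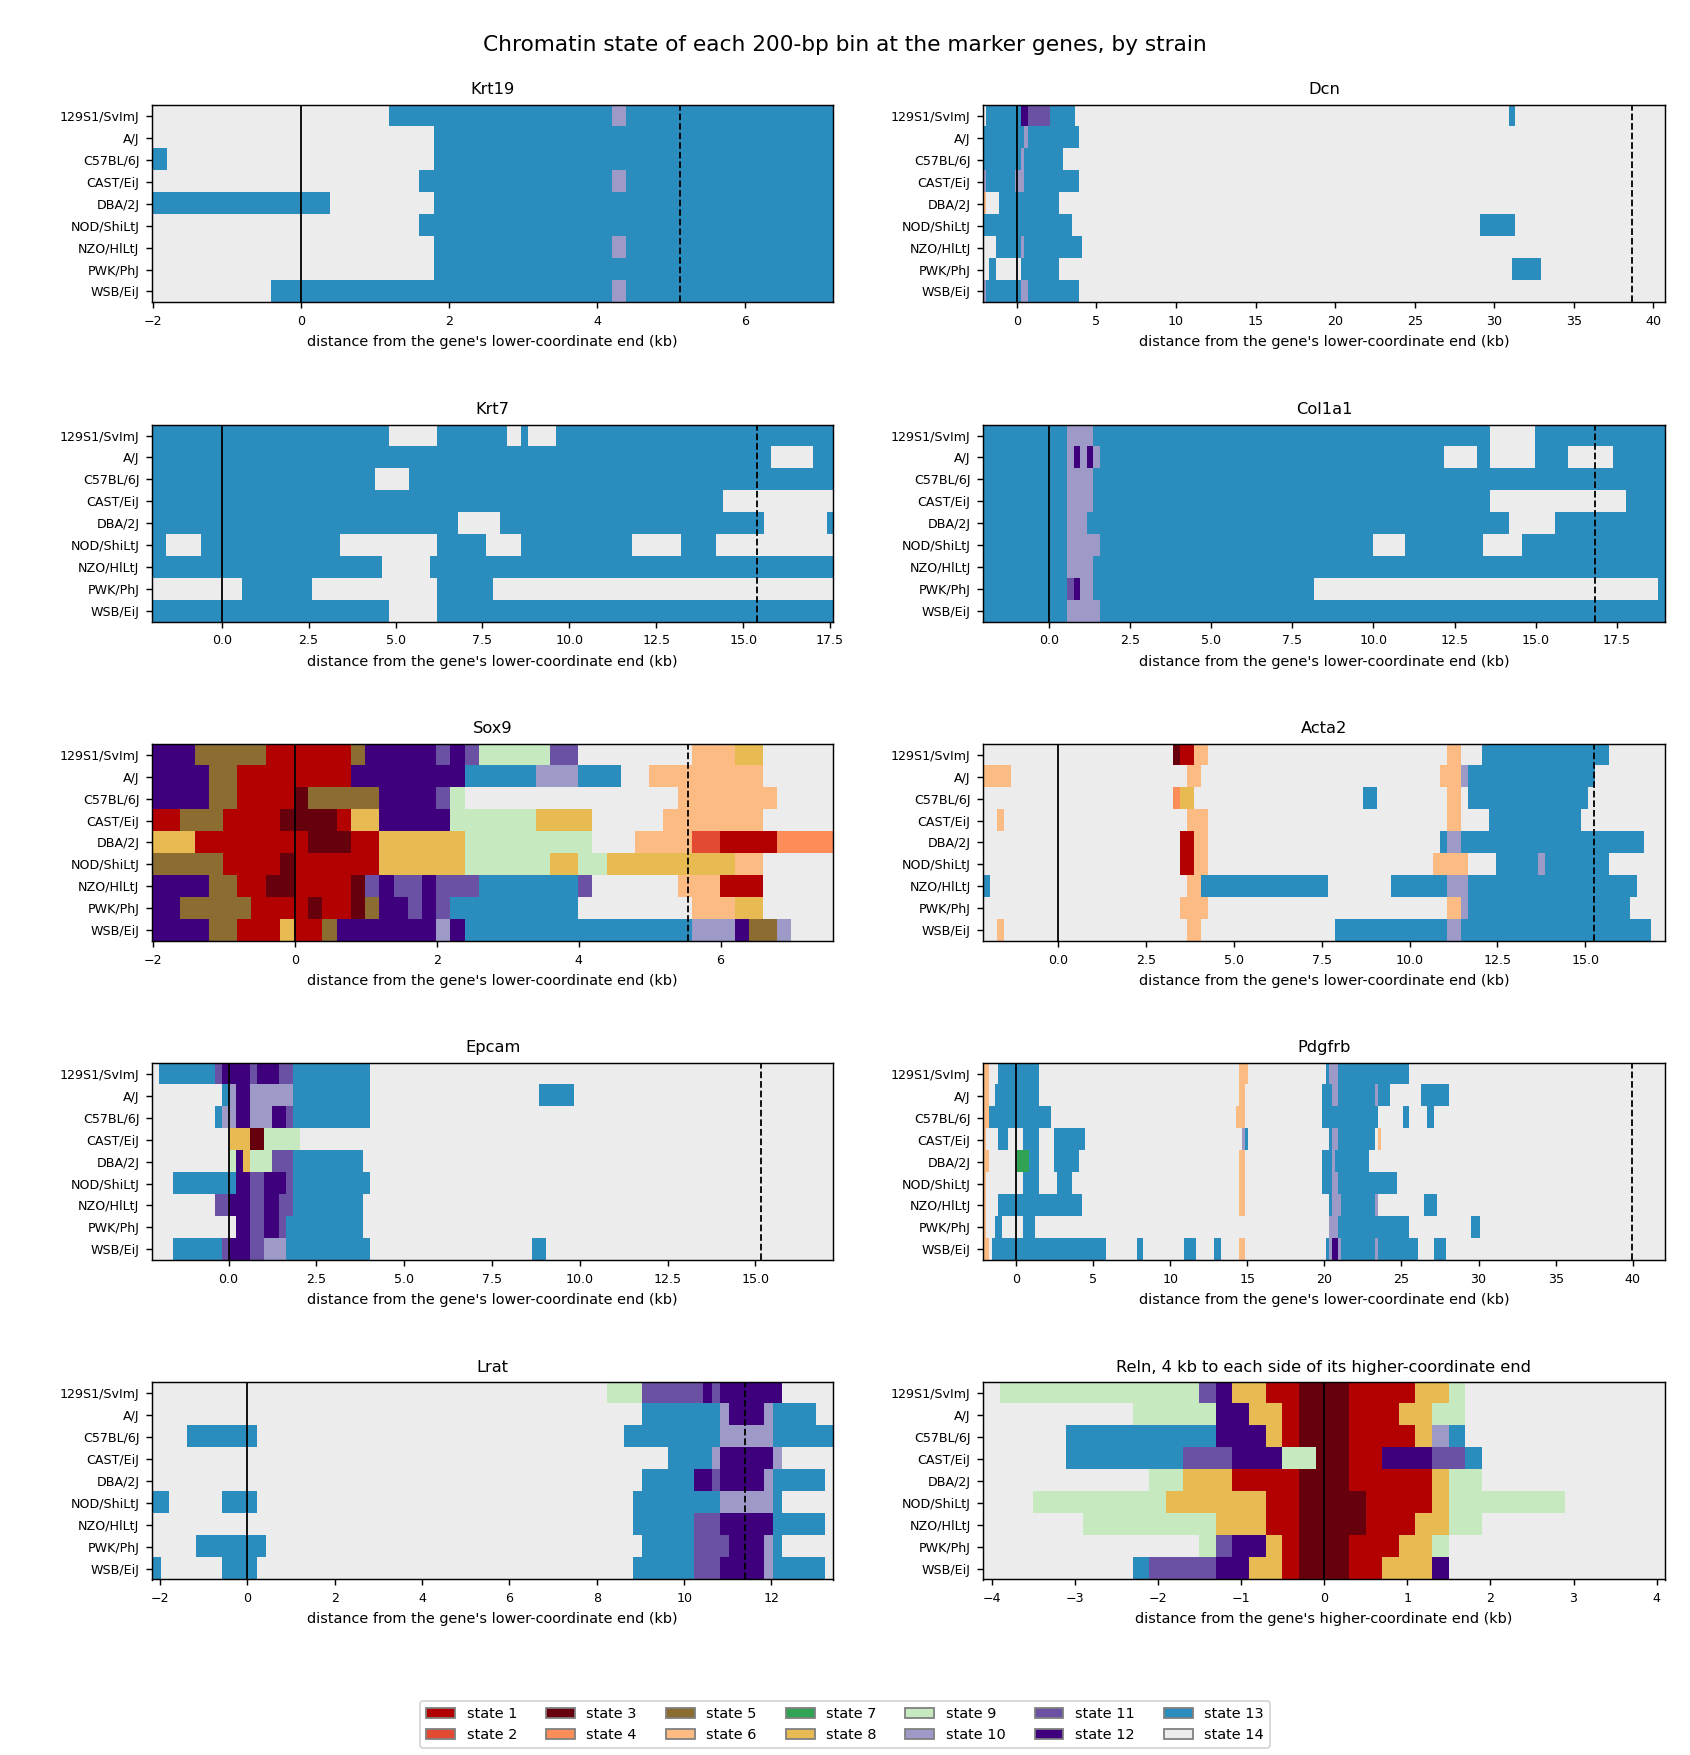
Chromatin state (colour) of each 200-bp bin along the padded span of 9 genes, and around the start of Reln, in 9 strains (rows). The x axis is the distance in kb from the gene's lower-coordinate end (solid line, with the higher-coordinate end dashed), or for Reln from its start. Krt19, Krt7 and Col1a1 are mostly state 13, Sox9 shows 13 states with no column alike in all strains, and the start of Reln is in state 3 in 9 strains.

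Of the stellate markers, Col1a1 had the widest cover of state 13 and Reln the least. Lrat (gene ID 79235, chr3:82892582-82903974) encodes the acyltransferase that makes retinyl esters, the stored form of vitamin A. Its start lay in state 12 in 7 strains and in state 10 in C57BL/6J and NOD/ShiLtJ. States 10 to 12 covered 7.69% of its 78 bins at the lowest and 20.5% at the highest, in 129S1/SvImJ, and were present in every strain. State 13 was found within 1 kb of the start in 8 strains. Over the whole gene it had a median of 17.9%, from 33.3% in C57BL/6J to 0% in 129S1/SvImJ, which had 4 bins of state 9 and 8 of state 11. The mean difference of state 13 from the autosomal share was 6.04 points, higher in 7 of 9 strains and not called (exact permutation, adjusted p = 0.104). Without 129S1/SvImJ it was 8.20 points and called (adjusted exact permutation p = 0.0189).

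Dcn and Col1a1 are genes of the extracellular matrix. State 13 lay at 1 end of Dcn and over most of Col1a1. Dcn (gene ID 13179, chr10:97479500-97518163) encodes the proteoglycan decorin, which binds collagen fibrils. State 13 held between 8.88% of its 214 bins in DBA/2J and 18.2% in NOD/ShiLtJ, with a median of 12.1%. It lay around the lower-coordinate end in every strain, in 4 to 11 of 11 bins there, while all 11 bins around the higher-coordinate end were in state 14 in 9 of 9 strains. The longest segment was 2200 to 6200 bp. The mean of 12.1% ± 2.69 was not called different from the autosomal share (1.09 points, higher in 5 of 9 strains, exact permutation, adjusted p = 0.229).

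Col1a1 (gene ID 12842, chr11:94936224-94953042) encodes the alpha 1 chain of type I collagen, the main fibre of scar tissue. State 13 covered 45.7% of its 105 bins in PWK/PhJ and between 76.2% and 96.2% in the other 8 strains, with C57BL/6J and NZO/HlLtJ highest. PWK/PhJ lay apart from all others, having state 14 over most of the higher-coordinate part of the gene. Near the lower-coordinate end the pattern was fixed, with 8 of 11 bins in state 13 in each of the 9 strains. A short block of state 10 began at 94936801 in 8 strains and at 94937201 in PWK/PhJ, where states 11 and 12 preceded it. The mean of 83.5% ± 16.1 was 72.4 points above the autosomal share and higher in 9 of 9 strains (exact permutation, adjusted p = 0.00498). The surroundings had less, with 60.8% on the lower-coordinate side over 50 kb and 20.7% on the other. In PWK/PhJ the flanks had 42.0% and 4.80%.

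Acta2 (gene ID 11475, chr19:34240336-34255585) encodes smooth muscle actin, the contractile protein of activated stellate cells. State 13 held the bin of its start in 8 strains, with state 14 there in CAST/EiJ, and took 5 to 11 of the 11 bins within 1 kb in all 9. Over the 97 bins it held 13.4% in CAST/EiJ, a median of 19.6%, 44.3% in WSB/EiJ and 52.6% in NZO/HlLtJ, so the last 2 strains had the largest shares. The longest single segment was 5.4 kb in WSB/EiJ, 5.2 kb in DBA/2J and 4.8 kb in NZO/HlLtJ. The mean of 26.0% ± 13.6 was 14.9 points above the autosomal share and higher in 9 of 9 strains (exact permutation, adjusted p = 0.00498). Small patches of state 6 lay in the padded span in all 9 strains, with 2.06% to 9.28% of the bins. Of states 1 to 4 there were at most 3 bins, in 129S1/SvImJ, and 0 in A/J, CAST/EiJ, NZO/HlLtJ, PWK/PhJ and WSB/EiJ. The padded span also touches the gene Stambpl1, so its bins cannot all be assigned to Acta2.

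Pdgfrb (gene ID 18596, chr18:61045127-61085067) encodes the receptor through which platelet-derived growth factor drives stellate cells to divide. Its 221 bins held state 13 at between 11.3% in DBA/2J and 19.5% in NZO/HlLtJ in 8 strains, and at 33.5% in WSB/EiJ, which lay apart. State 13 formed a block around the lower-coordinate end, in 1 to 11 of 11 bins, and a second inside the gene near 61066001. State 10 lay in or beside the second block in 8 strains and not in C57BL/6J. The mean of 18.0% ± 6.40 was 6.99 points above the autosomal share and higher in 9 of 9 strains (exact permutation, adjusted p = 0.00498). WSB/EiJ also had the highest autosomal share of state 13 of the strains, 13.1%, and the part of that in the value at Pdgfrb was not tested. The padded span touches the gene model Gm52351.

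Reln was almost free of state 13 and had state 3 at its start. It (gene ID 19699, chr5:21884454-22344705) encodes reelin, a large secreted glycoprotein that stellate cells make in the liver. State 13 was nearly absent, from 0% in DBA/2J, NOD/ShiLtJ and PWK/PhJ to 0.560% in CAST/EiJ. It was lower than the autosomal share in 9 of 9 strains (-10.9 points, exact permutation, adjusted p = 0.00498). That difference is mostly the autosomal share with its sign changed, so the test decides little. The start of Reln lay in state 3 in 9 of 9 strains, in a segment of 400 to 800 bp, and state 1 held 2 to 8 of the 11 bins within 1 kb. The other bins of this window differed between strains. State 8 was present there in 7 strains, and state 12 in 5. CAST/EiJ, with 5 bins of state 12 and 2 of state 9, had the fewest bins of state 1.

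Away from its start, Reln had 34 unbroken runs of marked bins over its 460 kb. State 6 was the most frequent state in 27 of them. Only 6 runs were marked in all 9 strains, and 9 were marked in a single strain. The longest, at chr5:22002601-22012000, lay 337 kb from the start and was led by state 2. It was marked in 7 strains and in state 14 throughout in C57BL/6J and PWK/PhJ. States 1 to 4 over the whole gene ranged from 0.258% in CAST/EiJ through a median of 1.16% to 2.89% in DBA/2J, with 2.84% in NOD/ShiLtJ and 2.33% in 129S1/SvImJ. In all 9 strains this was below the autosomal share (-6.38 points, exact permutation, adjusted p = 0.00477). State 14 held 95.8% ± 1.28 of the bins of this long gene. Within 1 kb of the gene's ends the share of states 1 to 4 was instead above the autosomal share, by 27.4 points.

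**Figure D2:**
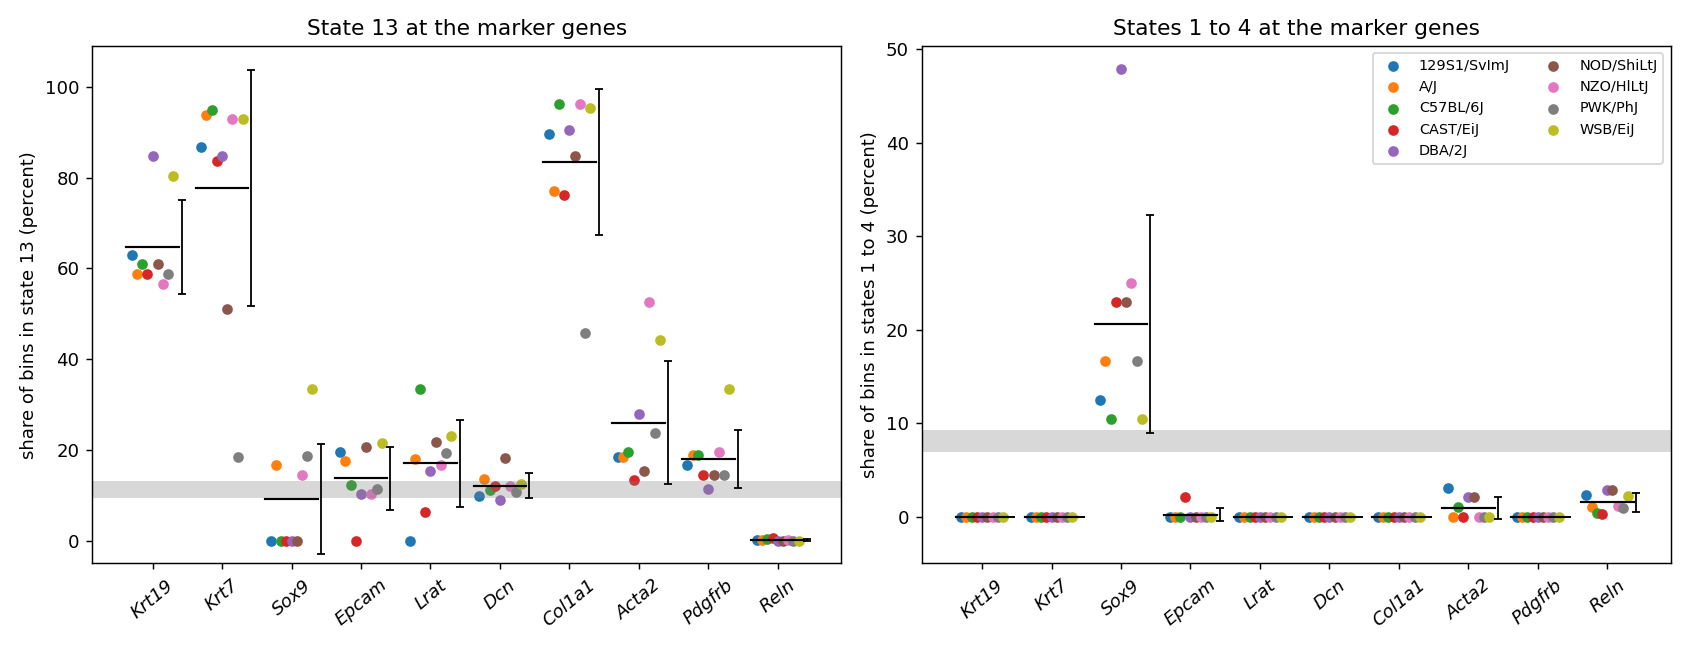
Share of bins (percent) in state 13 (left) and in states 1 to 4 (right) for each of the 10 genes. Points are the 9 strains, horizontal lines their means, vertical bars 1 SD over the strains, and the grey band is the range of the strains' autosomal shares. PWK/PhJ is lowest at Krt7 (18.4%) and Col1a1 (45.7%), and Sox9 in DBA/2J (47.9%) is the highest value in states 1 to 4.

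Counted over the list, state 13 was above the autosomal share at 5 of the 10 genes, Krt19, Krt7, Col1a1, Acta2 and Pdgfrb, where 17.0% of all protein-coding genes were called higher. It was below it at 1 gene, Reln, where 70.9% of all genes were called lower. At Reln this difference in state 13 is mostly the autosomal share with its sign changed. The median share over the 10 genes was 17.6%, against a median of 0% over all genes. With states 10 to 13 as 1 group, an alternative chosen after seeing the data, Epcam, Lrat and Dcn were also called and the count was 8, against 17.9% of all genes under the same grouping. State 13 was present in all 9 strains at 6 genes, which adds Dcn to these 5, against 21.3% of all genes.

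States 1 to 4 were above the autosomal share at 1 gene, Sox9, where 45.0% of all genes were called higher, and below it at 9, where 45.4% were called lower. Krt19, Krt7, Lrat, Dcn, Col1a1 and Pdgfrb had 0 bins of these states in any strain, as did 25.7% of all genes. For these 6 the difference of -7.94 points is only the autosomal share with its sign changed, so the test decides nothing for them. Epcam, Acta2 and Reln had 0.229%, 0.916% and 1.57% and were called lower in 9 of 9 strains (exact permutation, adjusted p = 0.00477). Only 1 strain had any bin of these states at Epcam, and 4 strains at Acta2. At these genes the difference is again mostly the autosomal share with its sign changed, and the test decides little. At least 1 bin of states 1 to 4 was present in all 9 strains at 2 genes, Sox9 and Reln, against 60.3% of all genes.

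By the share of bins outside state 14 the genes split. Krt19, Krt7, Sox9, Col1a1 and Acta2, 5 of 10, were called higher than the autosomes, close to the 56.9% of all genes, and Dcn and Reln, 2 of 10, lower, where 25.9% of all genes were lower. Acta2 was the least firm, at 33% ± 12.5 and 9.60 points above (higher in 8 of 9 strains, exact permutation, adjusted p = 0.0338). In windows at the gene ends Dcn and Reln turned higher, by 23.1 and 26.6 points, as were 74.6% of all genes there. The call at Acta2 was lost when A/J, C57BL/6J, DBA/2J, NZO/HlLtJ, PWK/PhJ or WSB/EiJ was left out (adjusted exact permutation p between 0.0575 and 0.0666), with 5 kb of padding and with 1000-bp bins. Against the median of all genes in place of the autosomal share its difference was -2.77 points. Pdgfrb was not called at -2.37 points, and without WSB/EiJ it was lower at -4.22 points (adjusted exact permutation p = 0.0205). Lrat was not called at 5.38 points, and without CAST/EiJ it was higher at 6.93 points (adjusted exact permutation p = 0.0114). Each strain is 1 value, so these p-values measure the spread between strains, which share ancestry, and not that between mice.

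At least 1 bin of states 10, 11 or 12 was present in all 9 strains at Lrat, Col1a1 and Reln, 3 of 10 genes, against 9.73% of all genes. At Reln this was state 12. Of these 3 states only state 10 was found at Krt19 and Acta2. At Col1a1 it was joined by states 11 or 12 in A/J and PWK/PhJ, and at Pdgfrb by state 12 in WSB/EiJ. The longest block of state 10 at Col1a1 was 1.0 kb. States 5, 7 or 11 were seen in at least 1 strain at 7 of the 10 genes, against 20.5% of all genes. State 7 was seen at Pdgfrb in DBA/2J alone, as 4 bins at the lower-coordinate end.

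One state held at least 50% of the bins in all 9 strains at 6 genes, against 51.5% of all genes. That state was 13 at Krt19, as at 2.63% of all genes, and 14 at Epcam, Lrat, Dcn, Pdgfrb and Reln, as at 47.3%. With PWK/PhJ left out the count rose to 8. Leaving out a strain can only keep or raise such a count, and no share of all genes without PWK/PhJ is given here.

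State 3 was found near the start, or near either end where no strand was given, in all 9 strains at 1 gene, Reln, against 42.7% of all genes. Among the 20 hepatocyte-expressed genes it was found at 19, and among the 18 ubiquitously expressed genes at 16. Over the 20084 start sites of the table, the median number in the promoter was 24 CG dinucleotides for state 3, 19 for state 12, 7 for state 13 and 2 for state 14. Lrat, in state 12, lay within the middle 50% of that group of start sites, 12 to 26, and Acta2, in state 13, within that of its own, 3 to 17. Krt7, in state 13 with 21, and Reln, in state 3 with 47, lay above theirs. The start bin of Epcam had no single state, with state 14 in 3 strains and states 10 to 13 in the others, and 11 CG dinucleotides.

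**Figure D3:**
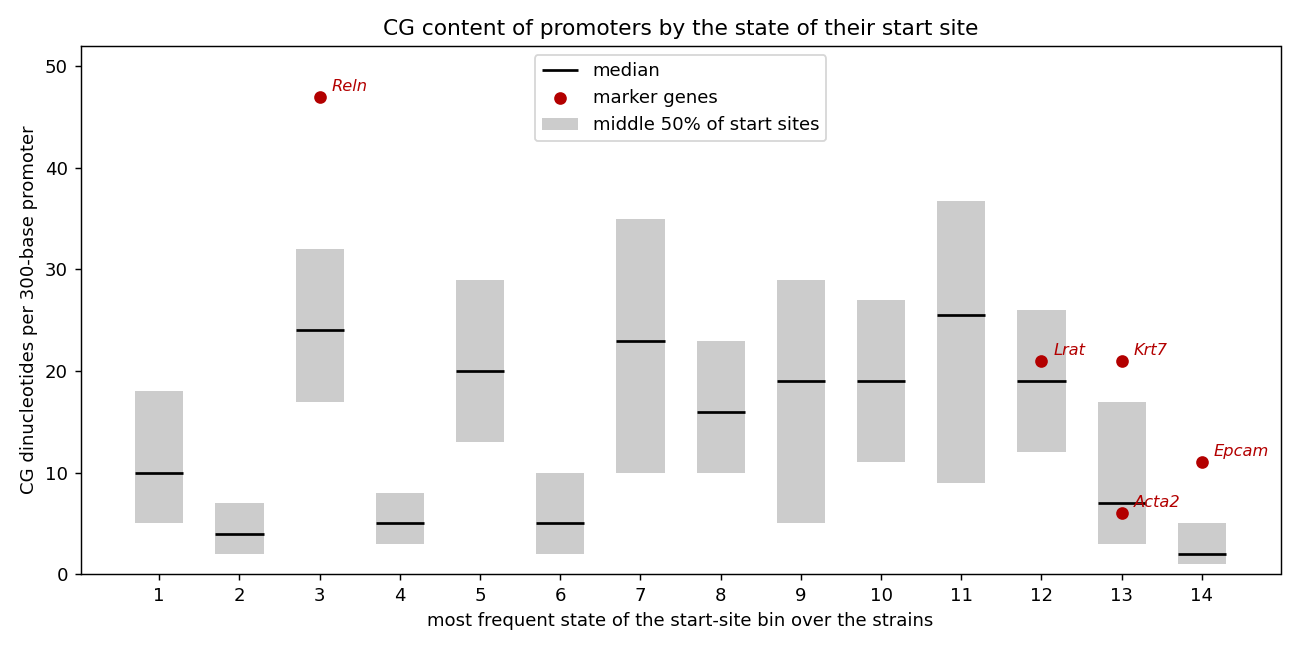
Number of CG dinucleotides in the 300-base promoter (y axis) by the most frequent state of the start-site bin over 9 strains (x axis), for 20084 start sites. Grey bars span the middle 50% of the start sites, black lines are medians and red points are the 5 marker genes with a promoter in the table. Reln (47) and Krt7 (21) lie above the bars of states 3 and 13.

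The strains were compared bin by bin through disagreement, the percentage of bins whose state differs, averaged over the 36 pairs of strains. Its median over the 10 genes was 17.7%, from 4.06% at Reln to 59.6% at Sox9, against 20.1% over all genes. Sox9 lay above 99.6% of all genes. Krt7 had 32.1%, Acta2 22.2% and Lrat 20.5%, and these 3 with Sox9 made 4 of 10 genes above the median of all genes, where 50% lie by definition. The low values of Reln and of Dcn, 7.05%, came with long stretches of state 14: in marked bins alone Reln had 44.4% and Dcn 30.2%. The median of all genes in marked bins was 34.9%.

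At most of the genes this disagreement was between states 13 and 14. At 8 of the 10 genes more than 50% of the differing bins were exchanges of these 2 states, with a median of 73.0% over the genes. The same held at 28.2% of all genes, whose median was 0%. At Krt7 it was 100% and at Col1a1 92.7%, while at Sox9 it was 7.96% and at Reln 4.01%. With states 13 and 14 taken as one, the median disagreement over the genes fell to 3.14%, and the median of all genes to 12.9%. Krt7 then had 0% and Sox9 still 54.9%. At Reln the most common exchange was between states 6 and 14, 35.9% of the differing bins.

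**Figure D4:**
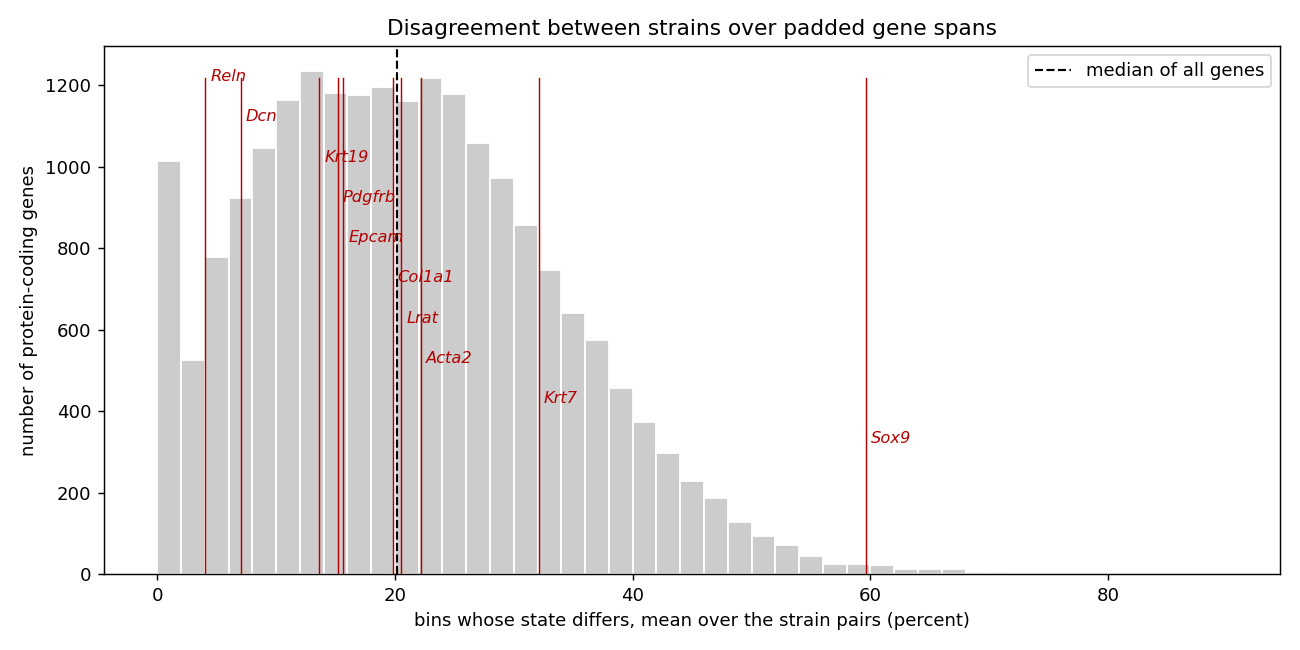
Number of protein-coding genes (y axis) by the percentage of bins whose state differs, averaged over 36 strain pairs (x axis). Red lines mark the 10 genes and the dashed line the median of all genes, 20.1%. Sox9 (59.6%) stands far to the right, and Reln (4.06%) and Dcn (7.05%) to the left.

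Bins in which 8 strains share a state and the ninth has another were counted as private to the ninth. PWK/PhJ had the most over the 10 genes, 73, and C57BL/6J the fewest, 7. The other strains had between 11, in A/J, and 35, in WSB/EiJ. Those of PWK/PhJ were gathered at Krt7, with 29, at Col1a1, with 22, and at Dcn, with 13. At Krt7 PWK/PhJ differed from another strain in 68.2% of the bins on average, and it was the most divergent strain at 3 of the genes. Over all genes PWK/PhJ also had the highest mean disagreement, 24.9%, against 25.5% over these 10. Other strains had the most private bins elsewhere. NZO/HlLtJ had 17 private bins at Acta2, WSB/EiJ 18 at Pdgfrb, CAST/EiJ 11 at Epcam and DBA/2J 7 at Krt19.

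Further genes of the same cells were listed by their known roles. Of 20 further bile duct genes, 4 were called higher in state 13 and 10 lower, and 10 were higher in states 1 to 4 and 8 lower. Onecut1, a transcription factor that hepatocytes or their precursors also use, had 68.8% ± 10.6 in states 1 to 4 and 0% in state 13, and was among the genes with the lowest shares of state 14. Tspan8, Pkhd1 and Bicc1 had the highest, at 98.0% ± 0.646, 93.3% ± 1.02 and 90.6% ± 8.61.

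Of 19 further stellate and fibroblast genes, 8 were called higher in state 13 and 8 lower, and 4 were higher in states 1 to 4 and 15 lower. Of the 15, 9 had 0 bins of states 1 to 4 in any strain, among them Des, Vim, Col1a2 and Col3a1, and for these the test again decides nothing. Hand2 and Lhx2, transcription factors of stellate cells, had 79.8% ± 12.8 and 61.0% ± 5.80 in state 13, with 0% and 7.13% in state 14. Tagln, a smooth muscle actin-binding protein, had 96.0% ± 5.03 in states 1 to 4 and 0% in state 13. At the other end, Lum, Dpt and Colec11 were in state 14 over 96.5% ± 3.82, 96.4% ± 1.5 and 96.0% ± 5.61 of their bins.

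The 2 groups of markers can be set beside the other lists. Averaged over the genes of a list, state 13 held 41.4% ± 8.72 at the 4 bile duct markers and 26.2% ± 5.41 at the 6 stellate markers, against 15.1% ± 2.86 at the further bile duct genes, 24.3% ± 1.96 at the further stellate genes and 10.1% over all genes. The bile duct mean rests on Krt19 (64.7%) and Krt7 (77.7%), since Sox9 had 9.26% and Epcam 13.7%. The stellate mean is raised by Col1a1 (83.5%), and the median stellate gene had 17.6%. In both marker lists PWK/PhJ was lowest, at 26.8% and 19%, and WSB/EiJ highest, at 57.1% and 34.8%. States 1 to 4 held 5.21% ± 2.92 and 0.414% ± 0.338. The first of these values rests on Sox9, since the median gene had 0.114%.

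**Figure D5:**
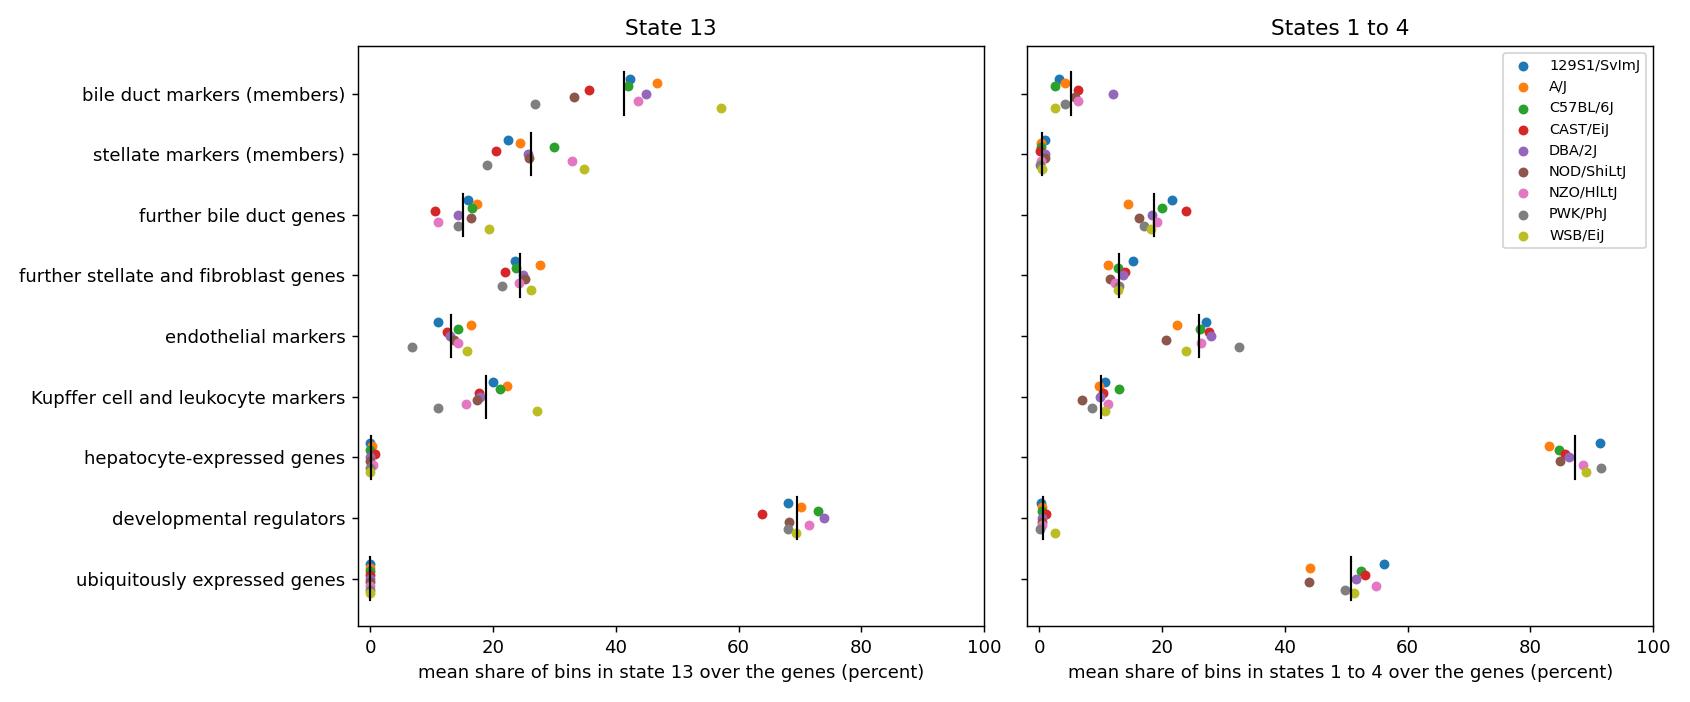
Mean share of bins (percent, x axis) in state 13 (left) and in states 1 to 4 (right) over the genes of 9 lists (y axis). Points are the 9 strains and black lines their means. In state 13 the 6 stellate markers (26.2%) lie near the further stellate genes (24.3%), and the 4 bile duct markers (41.4%) above the further bile duct genes (15.1%) and below developmental regulators (69.5%). The bile duct mean rests on Krt19 and Krt7, and the stellate mean is raised by Col1a1.

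For each of the 10, the most alike gene more than 1 Mb away was sought by the total variation distance between the 14-state compositions of the padded spans, averaged over the 9 strains. The distance is the percentage of bins that would have to change state. Closest to their matches were Reln, 1.92 points from Exoc4, Dcn, 2.64 from Gm11100, and Pdgfrb, 4.41 from Ltbp1. Col1a1 was 6.78 points from Rhcg, Krt19 7.38 from Scn10a, Krt7 8.01 from Gprin1 and Epcam 8.40 from Slc4a11. Acta2 was 10.3 points from Zfp287 and Lrat 10.7 from Klrg2. Sox9 had no near match, since the closest, Hspa2, was 42.7 points away. A small distance means a like share of each state and not the same place along the gene.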

How the data were processed

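Histone ChIP-seq from hepatocytes of 9 strains was read as chromatin states. Each deposited file holds the authors' state category, 1 of 14, for consecutive segments on mm10 (GRCm38). It has 1 other value, a score that the authors deposited as 0 throughout and that was not used. The submitters' processing notes list FastQC 0.11.5 and MACS 1.4.2, while the aligner, the segmentation tool and the mark content of the states are not given in the sources used here. Depth is unknown, so no counting interval is given.

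Segments were cut into 200-bp bins on chromosomes 1 to 19. Gene spans came from RefSeq (GRCm38.p6), padded by 2 kb. For every protein-coding gene, the share of bins in a state minus the autosomal share of the same strain was tested by flipping the signs of the 9 strain differences in all 512 ways, an exact permutation test, two-sided, with a smallest p of 0.0039. P-values were adjusted by Benjamini-Hochberg over 20661 genes and called at 0.05. The test was checked on simulated data. The table of start sites gave a strand for 5 of the 10 genes. For the other 5 both ends were used.

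The 10 genes, the further lists and the groups of states were chosen with earlier results of these data known. The genes named are the 10, the 3 with the lowest and the 3 with the highest share of state 14 in each further list, and the gene most like each of the 10. Some of the genes this rule takes from the further lists are not reported here. The others named from lists, those without states 1 to 4 and those with the highest shares of them, were picked after their values were seen. Alternatives were other paddings, bins, windows, baselines and groupings of states, and each strain left out in turn. The tools were Python 3.11.15 with scipy 1.17.1, pandas 2.3.3 and numpy 2.4.6, and figures were drawn with matplotlib 3.10.9.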

Additional observations from a re-analysis of the deposited data

Results flagged for a closer look

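In 7 of 24 sets of 9 strain values, 1 strain lay apart from the others, its gap to the nearest strain divided by the whole range being above the critical value of Dixon's test for 9 values. Chance alone gives such a gap in about 1 in 20 sets when the values are independent and normally distributed. These values are bounded shares from strains that share ancestry, and the sets of 1 gene are not independent. The 7 sets therefore cannot be read as more than chance gives. Sox9 had 47.9% of its bins in states 1 to 4 in DBA/2J, against 10.4% to 25% in the other strains. Epcam had 2.06% in these states in CAST/EiJ, which is 2 bins, and 0% elsewhere. With 8 strains at 0 any value above 0 passes, so this set is no evidence that CAST/EiJ stood apart. Dcn had 18.2% in state 13 in NOD/ShiLtJ, against 8.88% to 13.6%. Col1a1 had 45.7% in state 13 in PWK/PhJ, against 76.2% to 96.2%, and 49.5% outside state 14, against 80.0% to 100%. Pdgfrb had 33.5% in state 13 in WSB/EiJ, against 11.3% to 19.5%, and 37.6% outside state 14, against 15.4% to 22.6%.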

How the results depend on the processing

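Within 1 kb of the gene ends, 9 of the 10 genes were called higher outside state 14 and 0 lower, against 74.6% and 14.8% of all genes there, 2 were called lower in state 13 (70.2% of all genes) and 2 higher in states 1 to 4 (54.7%). Against the median of all genes, 5 were lower outside state 14 (41.0% of all genes), and 8 higher (25.2% of all genes) and 0 lower in state 13. That median is 0% for state 13 in every strain, so no gene can be lower and these counts say only that state 13 was present. The median disagreement was 33.8% over marked bins alone, against a median of 34.9% over all genes. With states 13 and 14 merged it was 3.14%, against 12.9% over all genes. State 3 at the start was found in all strains at 2 genes when states 1 to 3 counted alike. A wider group of states can only keep or raise that count, and no share of all genes is given for it. State 13 was called higher at 8 genes with states 10 to 13 together, an alternative chosen after seeing the data. Leaving out 1 strain gave 4 to 6 genes higher and 2 to 3 lower outside state 14, 5 to 6 higher and 1 lower in state 13, and 1 higher and 9 lower in states 1 to 4. It gave 6 to 8 genes mostly in one state, 1 with state 3 at the start, and a median disagreement of 15.9% to 18.5%. Counts of genes alike in all strains can only stay or rise with fewer strains. Over all alternatives, 137 values stayed within 1.5 times their counts or, for disagreement, within 1 SD over the genes, and 10 did not. For disagreement this limit is wide. The fall of its median from 17.7% to 3.14% with states 13 and 14 merged is among the 137. No paired analysis was possible because each strain has 1 pooled segmentation, so the numbers of the mice cannot enter a fit. The test sets each gene only against the autosomes of the same strain. With no read depth, the precision of a single state call is unknown.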
